A study of Mus musculus with 8 samples.

Results

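The RIKEN clone genes of the 1700 series are mouse genes whose symbols are the names of cDNA clones that the RIKEN institute sequenced from adult testis. They were chosen by name alone: an entry of the deposited gene table was taken when its symbol began with 1700 and ended in Rik in the clone format. This gave 167 members of 19276 entries, all of them present in the tables of all 8 libraries. No measured value entered this rule, but it was set with earlier results of these data known. Current mouse nomenclature keeps the clone name for 85 of them and has renamed 82. Of these, 8 have the name of a flagellum or cilium gene, 14 that of a sperm or testis gene and 60 another name. The classes follow a fixed list of symbol beginnings and describe names, not function. Other names thus also hold genes of cilia, such as 1700040L02Rik (Cabcoco1). RefSeq lists 162 members as protein coding, 4 as long noncoding RNA and 1 as a noncoding pseudogene. Each gene is given here by the clone symbol of the tables, with its current symbol in parentheses.

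RNA was sequenced from testes of 6-week-old C57BL/6 mice and from what an antibody against RNF17 pulled down from such testes. There were 4 groups of 2 libraries: testis homozygous for the Rnf17 mutation, testis heterozygous for it, RNF17 immunoprecipitate (IP) from heterozygous testis and RNF17 IP from homozygous testis. The labels give the genotypes only as homozygous and heterozygous, so the controls carry 1 copy of the same allele and no wild type group is among these libraries. The depositors set the testis libraries beside the IPs as lysate, but no label ties an IP to a given testis library. Whether both libraries of a group stem from different animals is not labelled. All p-values below therefore reflect library-to-library spread, and part or all of it may be technical.

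Spermatids are the haploid cells that follow meiosis. They switch on a large set of genes that few other cells use, store many of the mRNAs, and build the acrosome, the flagellum and a compact nucleus before transcription stops. Many clones made from adult testis come from these cells, and many of the genes carried only a clone name until a role was found. RNF17 belongs to the Tudor family of germ cell proteins, and male mice that lack it have spermatids that stop at the round stage. The comparison of testes addresses which RNAs depend on the intact gene, and the comparison of IPs addresses which RNAs the antibody recovers when RNF17 is intact.

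Gene reads per library numbered between 5661754 and 50575649, and 147 members had at least 1 read in each of the 8 libraries. Levels per library are CPM (read counts scaled to a common library size) on 1 TMM scale over all 8 libraries. Rnf17 itself had 50.3 and 97.7 CPM in homozygous testis, against 507 and 551 CPM in heterozygous testis. In the IPs it had 1263 and 1189 CPM in heterozygotes, against 214 and 393 CPM in homozygotes. Reads of Rnf17 were thus fewer in all homozygous libraries but present in each of them. The heterozygous testis libraries stood apart from each other: the summed level of 14 elongating spermatid markers was 8690 CPM in replicate 1 and 35570 CPM in replicate 2. For the counts, the medians and the largest differences that rest on them, values without each of them are given too.

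RefSeq promoter windows, from 250 bases before to 50 bases after the gene start in GRCm38.p6, were matched for 137 of the 167 members. They were searched on both strands for 6 short motifs: TGACGT, the core of the cAMP response element, TGACG, a shorter form that every TGACGT contains, GTTGCC, a partial site of RFX factors, AACNGTC and CAACTG, which MYB factors bind, and the TATA box TATAAA. These factors are known regulators of meiotic and spermatid genes. GTTGCC stood in 27 of the 137 member windows (19.7%), against 12.7% of all 27025 windows and 12.5% of the 13581 windows of genes matched to the deposited gene table. CAACTG stood in 25 member windows (18.2%), against 13.6% of all windows and 11.6% of those of table genes. For AACNGTC the shares were 10.2% of member windows, 8.09% of all and 7.5% of table genes' windows. TGACGT stood in 6.57% of member windows, 7.64% of all and 9.59% of table genes' windows, and TGACG in 20.4%, 21% and 26%. TATAAA stood in 9.49% of member windows, against 14.2% of all windows and 10.8% of those of table genes. Median GC content was 52.7% in the members' windows and 52.7% in all windows. These shares are descriptions, not tests, and a match is not a shown binding site.

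Windows of 5 members are printed. For 4 of them, Tex37, Tex35, Tex44 and 1700012A03Rik, homozygous testis levels were among the lowest relative to heterozygous testis, though some members not printed fell further. The member 1700010I14Rik had the most reads of all members over the testis libraries. All 5 are on mouse build GRCm38.p6 from RefSeq, 5′ to 3′ on the gene's strand, and the capitals mark every match of the 6 motifs on either strand. The windows are chr6:70918873-70919172 (- strand) for Tex37, chr1:157108609-157108908 (- strand) for Tex35, chr1:86426079-86426378 (+ strand) for Tex44, chr6:32050038-32050337 (+ strand) for 1700012A03Rik and chr17:8988083-8988382 (+ strand) for 1700010I14Rik.
1700011F03Rik (Tex37): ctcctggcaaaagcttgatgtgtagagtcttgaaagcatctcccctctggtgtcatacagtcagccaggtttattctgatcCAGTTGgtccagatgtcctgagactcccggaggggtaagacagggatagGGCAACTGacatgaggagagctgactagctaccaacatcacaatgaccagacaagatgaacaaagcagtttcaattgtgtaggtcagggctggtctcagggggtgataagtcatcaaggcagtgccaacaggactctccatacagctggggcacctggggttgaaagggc
1700057K13Rik (Tex35): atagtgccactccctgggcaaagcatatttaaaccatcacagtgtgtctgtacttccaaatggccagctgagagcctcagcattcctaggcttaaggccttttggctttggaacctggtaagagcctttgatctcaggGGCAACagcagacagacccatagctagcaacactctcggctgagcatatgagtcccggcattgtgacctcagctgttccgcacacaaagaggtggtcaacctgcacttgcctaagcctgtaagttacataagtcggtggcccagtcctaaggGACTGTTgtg
1700019O17Rik (Tex44): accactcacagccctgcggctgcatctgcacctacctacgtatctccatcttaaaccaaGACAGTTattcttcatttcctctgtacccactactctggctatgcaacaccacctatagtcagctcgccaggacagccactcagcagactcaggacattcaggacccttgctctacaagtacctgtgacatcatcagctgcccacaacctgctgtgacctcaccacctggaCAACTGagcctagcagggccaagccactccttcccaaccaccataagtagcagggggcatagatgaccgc
1700012A03Rik: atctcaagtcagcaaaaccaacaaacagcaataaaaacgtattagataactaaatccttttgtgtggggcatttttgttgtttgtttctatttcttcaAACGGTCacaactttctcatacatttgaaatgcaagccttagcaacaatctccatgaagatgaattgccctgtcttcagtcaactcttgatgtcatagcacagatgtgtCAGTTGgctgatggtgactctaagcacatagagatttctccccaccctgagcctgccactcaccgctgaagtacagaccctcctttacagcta
1700010I14Rik: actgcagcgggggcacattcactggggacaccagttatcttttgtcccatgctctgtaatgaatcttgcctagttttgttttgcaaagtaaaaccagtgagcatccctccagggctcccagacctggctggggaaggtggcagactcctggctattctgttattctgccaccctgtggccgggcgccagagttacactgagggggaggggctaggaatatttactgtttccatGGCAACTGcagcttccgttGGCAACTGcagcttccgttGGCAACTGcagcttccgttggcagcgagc
The 3 capital runs of 1700010I14Rik are each a GTTGCC match, read on the other strand, that overlaps a CAACTG match, and their starts lie 19 bases apart. Tex37 has 1 such overlapping pair and a second CAACTG match on its own. Tex35 has 1 GTTGCC match and 1 AACNGTC match, and both Tex44 and 1700012A03Rik have 1 AACNGTC match and 1 CAACTG match that do not overlap. Members not printed that fell further than Tex44 and Tex35 had fewer matches. The window of 1700008P02Rik (log2 difference -9.3) has 1 CAACTG match and that of 1700016H13Rik (-5.69) 1 TGACG match. That of 1700080E11Rik (Nudt16l2, -7.39) has 0 matches of the 6 motifs.

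The 1700 clone genes were lower as a group in homozygous testis. They took 0.647% and 0.756% of gene reads in the homozygous testis libraries, against 1.04% and 1.85% in the heterozygous ones. Both homozygous libraries lay below both heterozygous ones, and the heterozygous libraries differed from each other by more than the homozygous libraries did. After the filter on low counts 157 members were tested, and 10 had too few reads. Their median log2 difference, homozygous minus heterozygous testis, was -1.68, with quartiles of -3.10 and -0.68. Over all 14332 genes tested the median was 0.04. Of the 157 members, 142 had a difference below 0 and 15 above 0, while 48.1% of all genes tested were below 0.

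**Figure D1:**
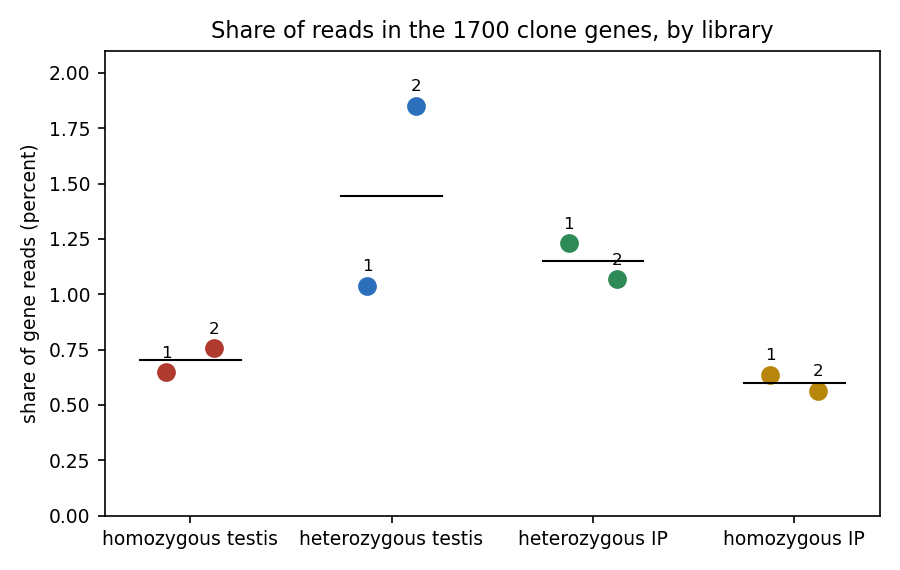
Share of gene reads (percent) that fell in the 167 clone genes, for each library of the 4 groups. Points are libraries with their replicate number and lines are group means; both homozygous testis libraries (0.647% and 0.756%) lie below both heterozygous testis libraries (1.04% and 1.85%), and both homozygous IPs lie below both heterozygous IPs.

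With 2 libraries a group, edgeR's quasi-likelihood test called no gene at a Benjamini-Hochberg adjusted p under 0.05, neither among members (0 of 157) nor among all genes (0 of 14332, 0%), and its smallest adjusted p was 0.133. At an unadjusted p under 0.05 it had 76 members lower and 1 higher, against 1169 and 284 of all 14332 genes. Same-numbered testis libraries deviated together across genes, with a correlation of 0.61. With a block for replicate number edgeR called 66 of 157 members, all lower, and 838 genes lower and 105 higher of 14332. No label pairs libraries by number, so the block was not part of the main fit. DESeq2 called 58 members lower and 0 higher, against 4.77% of all genes lower and 0.16% higher. In 94 of the 157 members, both homozygous libraries lay below both heterozygous ones, where this held for 19.7% of all genes tested; the reverse held for 1 member and 20.3% of all genes. In the authors' deposited table for the same contrast 55 members are listed, with 51 of them at an adjusted p under 0.05 and all 51 lower in homozygous testis. Genes lower at that level in the authors' deposited table came to 3.02% of all entries.

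Most members were lower in the homozygous library in each pairing of libraries, by differing counts. Homozygous replicate 1 was lower than heterozygous replicate 1 for 145 of the 167 members and lower than heterozygous replicate 2 for 149. Homozygous replicate 2 was lower than heterozygous replicate 1 for 107 members and lower than heterozygous replicate 2 for 144. Between same-numbered libraries, 139 of the 157 tested members were lower in each pair, against 45.4% and 47.5% of all genes tested. The share of all genes was not computed for the crossed pairs, so the 107 and 149 have no background here. Without heterozygous replicate 1 the members' median log2 difference was -2.17, and edgeR called 82 of 160 members lower and 2 higher, where it called 8.23% of all genes. Without heterozygous replicate 2 the median was -0.96, and edgeR called 31 of 151 members, all lower, and 2.82% of all genes. DESeq2 called 78 members lower without heterozygous replicate 1, against 6.53% of all genes, and 31 without heterozygous replicate 2, against 2.55%. Calls by edgeR numbered 13 of 161 members without homozygous replicate 1, against 1.18% of all genes, and 8 of 156 without homozygous replicate 2, against 0.519%. In each of these fits the lone library was assumed to vary like the other group. Both homozygous libraries lay below heterozygous replicate 2 alone in 134 of the 157 members, against 39.1% of all genes tested, and below heterozygous replicate 1 alone in 99, against 32.6%.

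Markers of other cells moved with the same contrast. The summed level of the 14 elongating spermatid markers found was 2202 and 3148 CPM in homozygous testis, against 8690 and 35570 CPM in heterozygous testis, and that of 15 round spermatid markers was 894 and 1846 CPM, against 2243 and 7666 CPM. Pachytene spermatocyte markers (10 of 10 found) summed to 4833 and 10066 CPM in homozygous testis, against 7066 and 12329 CPM in heterozygous testis, so these groups overlapped. For 9 Sertoli cell markers the sums were 769 and 1012 CPM, against 372 and 464 CPM, and for 8 Leydig cell markers 681 and 831 CPM, against 271 and 363 CPM, with Insl3 at 0 reads in all 8 libraries. The 5 peritubular myoid cell markers summed to 222 and 118 CPM, against 95.2 and 82.3 CPM. Spermatid markers were thus low and markers of these 3 somatic cell types high in homozygous testis. Homozygous replicate 2 stood apart for 5 epididymis markers, which summed to 2.94 and 72.9 CPM in homozygous testis, against 3.33 and 6.77 CPM in heterozygous testis. Their part in the members' difference was not tested. In whole testis, fewer cells of a type and less RNA per cell cannot be told apart.

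**Figure D2:**
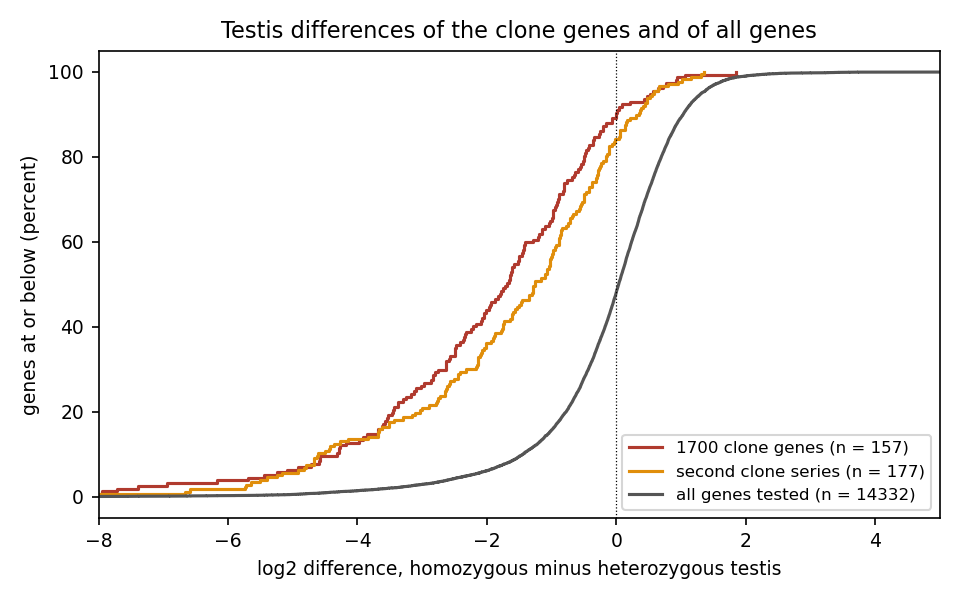
Cumulative share of genes (percent) by log2 difference, homozygous minus heterozygous testis, for the 1700 clone genes, a second series of testis clone genes and all genes tested. The medians are -1.68, -1.25 and 0.04, and the curves of both clone series lie left of that of all genes.

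A second series of RIKEN testis clone names, such as 4930402F06Rik, gave a nearby distribution. Of its 192 entries 177 were tested, and their median log2 difference was -1.25. DESeq2 called 57 lower and 0 higher (4.77% and 0.16% of all genes tested). Leaving out heterozygous replicate 1 gave it a median of -1.55, and leaving out heterozygous replicate 2 gave -0.87. The difference between both clone series was not tested.

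Members with sperm or testis names had a median log2 difference of -2.73. Of the 14, 13 had a difference below 0 (48.1% of all genes tested). In 11 of the 14 both homozygous libraries lay below both heterozygous ones (19.7% of all genes), and DESeq2 called 8 lower (4.77%). The median was -3.27 without heterozygous replicate 1, where DESeq2 called 10, and -1.95 without heterozygous replicate 2, where it called 4 of 13. 1700011F03Rik (Tex37), a testis expressed gene, had 0.508 and 0.393 CPM in homozygous testis, against 5.83 and 101.7 CPM in heterozygous testis. Both homozygous values were below both heterozygous ones, and the heterozygous libraries lay far apart. The log2 difference was -6.94 (SE 1.46), with an adjusted p of 0.139 by edgeR and 4.64e-09 by DESeq2. It was -7.89 without heterozygous replicate 1 and -3.73 without heterozygous replicate 2, where edgeR's adjusted p was 3.62e-13 and 0.0166. 1700057K13Rik (Tex35) had 19.0 and 5.69 CPM in homozygous testis, against 281.6 and 360.7 CPM in heterozygous testis, and here the heterozygous libraries were close. Its log2 difference was -4.72 (SE 0.79), with an adjusted p of 0.133 by edgeR and 1.94e-08 by DESeq2, and it lay between -4.92 and -4.53 with either heterozygous library left out. 1700019O17Rik (Tex44) had 4.47 and 1.29 CPM in homozygous testis, against 51.5 and 158.5 CPM in heterozygous testis, without overlap, and a log2 difference of -5.24 (SE 0.96), which became -5.88 with heterozygous replicate 1 left out and -4.22 with heterozygous replicate 2 left out.

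The member of this class with a difference above 0 was Catsperz. The levels of 1700019N12Rik (Catsperz), a subunit of the sperm calcium channel CatSper, were 14.2 and 71.3 CPM in homozygous testis, against 26.8 and 58.1 CPM in heterozygous testis. The groups overlapped and the log2 difference was 0.01 (SE 0.83). Its exons overlap another annotated gene over 46.5% of their length, so its reads are uncertain. 1700061J05Rik (Tex33) had 128 and 266 CPM in homozygous testis, against 320 and 883 CPM in heterozygous testis, without overlap. Its log2 difference of -1.62 (SE 0.72) was not called by either tool, and it was -2.19 without heterozygous replicate 1 and -0.70 without heterozygous replicate 2. Catsperz was singled out after its values were seen.

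Members with flagellum or cilium names had a median log2 difference of -0.76, with 7 of 8 below 0 (48.1% of all genes tested). Lower without overlap were 3 of 8 (19.7% of all genes), and DESeq2 called 1 of 8 lower (4.77%). With heterozygous replicate 1 left out the median was -1.33, and with heterozygous replicate 2 left out it was -1.01. The called one, 1700006E09Rik (Cfap97d1), which mouse sperm need to keep the axoneme intact, had 11.0 and 5.31 CPM in homozygous testis, against 74.2 and 217.5 CPM in heterozygous testis. The groups did not overlap, with a log2 difference of -4.18 (SE 0.80) and a DESeq2 adjusted p of 1.68e-06. 1700003M02Rik (Cfap206), which anchors radial spokes of the axoneme, had 183 and 510 CPM in homozygous testis, against 298 and 1026 CPM in heterozygous testis, with overlap. 1700007G11Rik (Cfap299) had 169 and 183 CPM in homozygous testis, both between the 363 and 91.8 CPM of heterozygous testis. The 1 member of this class above 0, 1700019E19Rik (Ift43), named here after its values were seen, is part of the complex that returns cargo from the tip of the cilium. It had 36.2 and 57.6 CPM in homozygous testis, against 38.3 and 31.4 CPM in heterozygous testis, also with overlap. Differences between the name classes were not tested, and without heterozygous replicate 2 the smallest median was that of other names, -0.65.

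**Figure D3:**
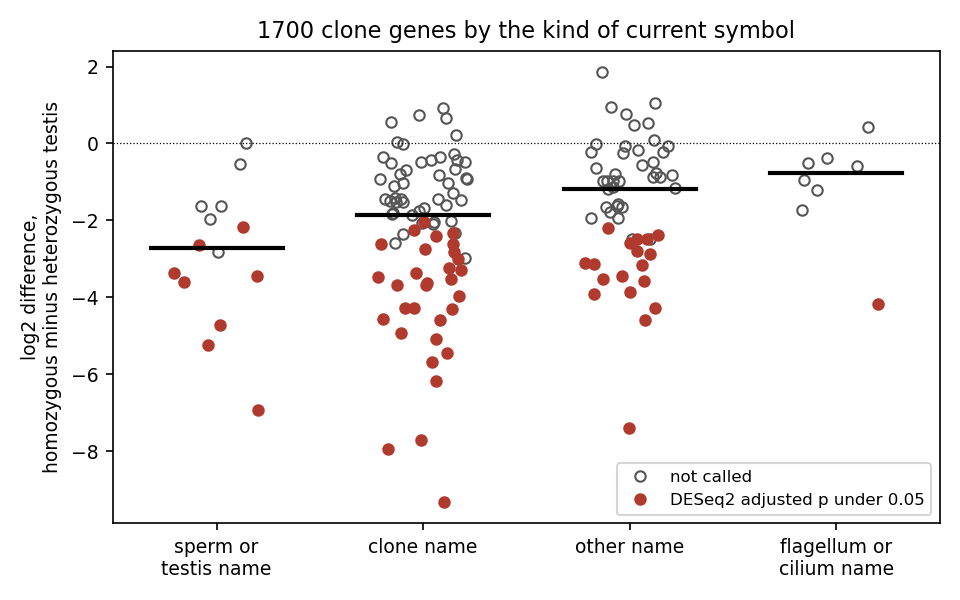
Log2 difference, homozygous minus heterozygous testis, of the tested members by the kind of current symbol. Filled points are members that DESeq2 called, open points the others, and bars class medians; the medians run from -2.73 for sperm or testis names to -0.76 for flagellum or cilium names.

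Members that still carry a clone name had a median log2 difference of -1.87, and DESeq2 called 31 of the 79 tested lower (4.77% of all genes). The median was -2.34 without heterozygous replicate 1 and -0.79 without heterozygous replicate 2, where DESeq2 called 43 of 82 and 17 of 75. 1700008P02Rik had 0.102 and 0.019 CPM, against 5.33 and 47.8 CPM in heterozygous testis. These are 2 reads in both homozygous libraries together and 738 in the heterozygous ones, so the pooled level was 1125-fold higher in heterozygous testis, with an exact 95% interval of 310 to 9304 that covers counting error only. Of the heterozygous reads, 32 were in replicate 1 and 706 in replicate 2. Both homozygous testis libraries were thus near the limit of detection for this gene. 1700012A03Rik had 1.32 and 0.486 CPM in homozygous testis, against 75.2 and 339.8 CPM in heterozygous testis, without overlap. Its log2 difference was -7.95 (SE 1.13), with an adjusted p of 0.133 by edgeR and 7.01e-17 by DESeq2, and it has the smallest adjusted p of the members in the authors' deposited table, 3.21e-12. The difference was -8.73 without heterozygous replicate 1 and -6.52 without heterozygous replicate 2. 1700034E13Rik had 9.55 and 3.59 CPM in homozygous testis, against 139 and 786 CPM in heterozygous testis, and 1700016H13Rik had 2.54 and 0.954 CPM, against 23.5 and 149 CPM. Neither showed overlap, and their log2 differences were -6.16 (SE 1.12) and -5.69 (SE 1.13). Without heterozygous replicate 1 these were -6.96 and -6.53, and without heterozygous replicate 2 they were -4.43 and -3.82. edgeR called 1700012A03Rik, 1700034E13Rik and 1700016H13Rik in each of these fits.

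Members with other names had a median log2 difference of -1.17, with 18 of 56 called lower by DESeq2 (4.77% of all genes tested). It was -1.67 without heterozygous replicate 1 and -0.65 without heterozygous replicate 2, with 23 of 56 and 9 of 55 called lower. 1700080E11Rik (Nudt16l2), named for the Nudix hydrolase domain, had 0 and 7 reads in homozygous testis, or 0 and 0.131 CPM, against 3.0 and 30.8 CPM in heterozygous testis. The log2 difference was -7.39 (SE 1.49), and DESeq2's adjusted p was 5.41e-08. It was -8.23 without heterozygous replicate 1 and -4.87 without heterozygous replicate 2, where edgeR's adjusted p was 5.73e-11 and 0.0107. 1700008A04Rik (Smim23), a small membrane protein, had 11.9 and 15.04 CPM in homozygous testis, against 223 and 181.5 CPM in heterozygous testis. Both pairs of libraries were close, and the log2 difference was -3.91 (SE 0.57), with an adjusted p of 0.133 by edgeR and 6.43e-08 by DESeq2. A pair of histone variant genes, picked out after their values were seen, was also low: 1700024P04Rik (H2bl1) had 0.406 and 0.954 CPM in homozygous testis, against 8.67 and 26.0 CPM in heterozygous testis. 1700054O13Rik (H2ap) had 3.05 and 1.72 CPM in homozygous testis, against 27.5 and 40.4 CPM in heterozygous testis.

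**Figure D4:**
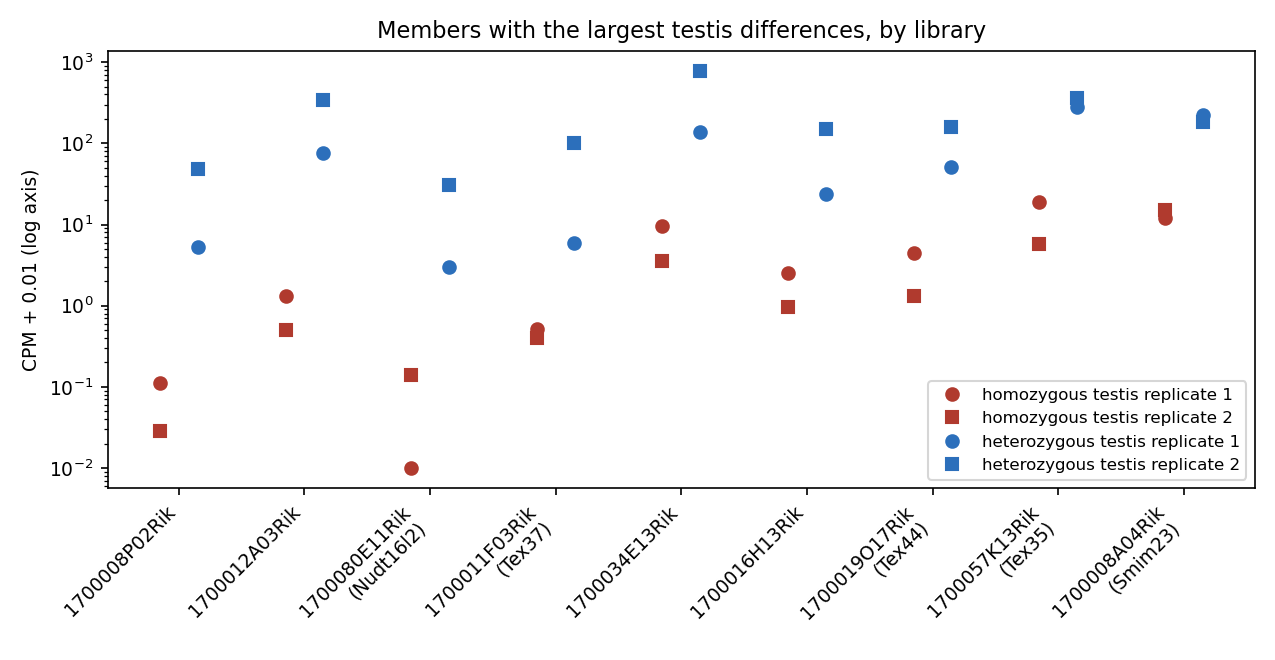
CPM plus 0.01 on a log axis of the 9 members with the largest testis differences or the smallest adjusted p in the authors' deposited table, for homozygous (left, red) and heterozygous (right, blue) testis. Circles are replicate 1 and squares replicate 2; in every member shown both homozygous points lie below both heterozygous ones, and the 0 reads of Nudt16l2 in homozygous replicate 1 are drawn at 0.01.

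The 10 members with the most testis reads had log2 differences between -3.17 and 0.48, and DESeq2 called 4 of them lower (4.77% of all genes tested). Their median was -1.81, where that of all members was -1.68. 1700010I14Rik took between 5.88% and 8.98% of all member reads in heterozygous replicate 2 and in both homozygous libraries, and 1700040L02Rik (Cabcoco1), a calcium binding protein of cilia, took the most, 5.16%, in heterozygous replicate 1. 1700010I14Rik had 350 and 643 CPM in homozygous testis, against 387 and 1463 CPM in heterozygous testis, and Cabcoco1 had 288 and 219 CPM, against 549 and 312 CPM. The groups overlapped for 1700010I14Rik and did not for Cabcoco1, and neither was called, with log2 differences of -0.90 (SE 0.78) and -0.76 (SE 0.57). 1700012A16Rik (Shcbp1l), which mouse spermatocytes need for a stable meiotic spindle, had 157 and 501 CPM in homozygous testis, against 160 and 311 CPM in heterozygous testis, with overlap and a log2 difference of 0.48 (SE 0.72). 1700008F21Rik (Ccdc7b) had 56.0 and 52.9 CPM in homozygous testis, against 287 and 688 CPM in heterozygous testis, without overlap, and 1700029G01Rik (Sh3d21) had 65.3 and 56.5 CPM, against 286 and 771 CPM. DESeq2's adjusted p was 0.000124 for Ccdc7b and 0.000273 for Sh3d21. Without overlap, 1700074P13Rik had 45.7 and 72.7 CPM in homozygous testis, against 236 and 718 CPM in heterozygous testis, and 1700030J22Rik had 68.8 and 90.7 CPM, against 182 and 946 CPM. Without heterozygous replicate 2 the log2 difference of 1700030J22Rik was -1.19, against -2.83 with all libraries, and that of 1700074P13Rik was -1.99, against -3.02; neither passed edgeR's test there, with adjusted p of 0.526 and 0.0944. 1700034J05Rik, with 97.5 and 119 CPM in homozygous testis, against 212 and 656 CPM in heterozygous testis, was not called by DESeq2.

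Per kilobase of the longest GENCODE M21 transcript, the order of the members also differed between genotypes. The highest level per length in homozygous testis was that of 1700010I14Rik, 267.8 CPM per kilobase, followed by Cabcoco1 with 200.9. In heterozygous testis it was that of 1700019M22Rik, annotated as a noncoding pseudogene, with 1428 CPM per kilobase, followed by 1700034E13Rik with 944. These group means rest on libraries far apart: 1700019M22Rik had 25.3 and 16.7 CPM in homozygous testis, against 150 and 861 CPM in heterozygous testis. Members had short transcripts, with a median longest transcript of 1199 bases, against 3089 bases over the 17306 entries matched by symbol.

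In size, 20 members had a log2 difference below -4 in the testis and DESeq2 called each of them, and 38 of the 49 between -4 and -2 were called. With heterozygous replicate 1 left out 34 members were below -4, and with heterozygous replicate 2 left out 9. None of the 33 between -2 and -1 was called, nor any of the 53 between -1 and 1. Above 1 stood 1700014N06Rik (H2bfm), an X-linked histone H2B gene, with 1.73 and 2.96 CPM in homozygous testis, against 0.333 and 0.880 CPM in heterozygous testis. The other was 1700040I03Rik (Pradc1), with 1.52 and 7.78 CPM in homozygous testis, against 1.00 and 3.39 CPM in heterozygous testis. H2bfm did not overlap between the groups and Pradc1 did, and neither was called by DESeq2.

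In the RNF17 IP, the clone genes were more abundant in heterozygotes. They took 1.23% and 1.07% of gene reads in heterozygous IPs, against 0.637% and 0.564% in homozygous IPs, and the groups did not overlap. The median log2 difference of the 157 members tested, heterozygous minus homozygous IP, was 1.21, where that of all 13427 genes tested was 0.03. edgeR's quasi-likelihood test called 102 members higher in heterozygous IP (background 17.7% of genes tested) and 7 lower (background 12.4%), and DESeq2 called 94 higher and 7 lower (14.6% and 11.9% of all genes). The median stayed at 1.21 with the 4 tested members at 0 reads in homozygous IP set to the bound given below. Both heterozygous libraries lay above both homozygous ones for 112 members and below them for 18, against 32.2% and 36.1% of all genes tested. In the second clone series the median was 0.62, and edgeR called 81 of 175 higher and 15 lower. Its summed level went the other way, with 15766 and 17968 CPM in heterozygous IP, against 20944 and 28519 CPM in homozygous IP. The difference between both series was not tested. The IP comparison is between IPs alone and is not corrected for the level in testis.

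The largest IP differences belonged to members nearly absent from the homozygous IPs. Nudt16l2 had 47.6 and 33.6 CPM in heterozygous IP, against 0 reads in both homozygous IPs. Set against the 3 reads that a count of 0 allows over both homozygous libraries, its level was at least 153-fold higher in heterozygous IP, and by the same measure Tex37, with 28.9 and 29.0 CPM in heterozygous IP, was at least 109-fold higher. 1700020A23Rik had 23.9 and 14.9 CPM in heterozygous IP, against 0 reads in homozygous IP, which is at least 72.9-fold higher. Each of the 3 was near 0 in homozygous testis too. 1700016H13Rik had 40.3 and 25.4 CPM in heterozygous IP, against 0.189 and 0 CPM in homozygous IP, or 590 reads against 1 read. The pooled ratio was 392, with an exact 95% interval of 70.0 to 15492 for counting error only. edgeR's adjusted p was 2.16e-06 for Nudt16l2, 2.52e-06 for Tex37, 1.36e-05 for 1700020A23Rik and 3.15e-06 for 1700016H13Rik. An exon overlap of 41.8% with another annotated gene makes the reads of 1700020A23Rik uncertain.

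The sperm or testis names had 12 of 14 members called higher and 0 lower in heterozygous IP, with a median log2 difference of 2.62. Tex35 had 64.4 and 68.9 CPM in heterozygous IP, against 6.43 and 4.17 CPM in homozygous IP, a log2 difference of 3.74 (SE 0.28) with an edgeR adjusted p of 3.56e-06. The replicates of each IP group were close. 1700026L06Rik (Spaca9), a protein of ciliary microtubules singled out after its values were seen, had 77.8 and 30.4 CPM in heterozygous IP, against 2.27 and 1.502 CPM in homozygous IP. Of the flagellum or cilium names, 5 of 8 were called higher and 1, 1700026D08Rik (Cfap161), lower. Clone names had 53 of 80 called higher and 2 lower, and other names 32 of 55 higher and 4 lower. Of all genes tested edgeR called 17.7% higher and 12.4% lower, and 1 lower call among 8 flagellum or cilium names is near that share.

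The 4 largest falls in heterozygous IP were small. 1700023A16Rik (Smco2) had 54.6 and 46.4 CPM in heterozygous IP, against 106 and 159 CPM in homozygous IP, a log2 difference of -1.30 (SE 0.23) with an edgeR adjusted p of 0.00166. 1700021F05Rik (Mtres1), a factor of mitochondrial transcription, fell by 1.21 on the log2 scale, and 1700021K19Rik (Rubcn), an inhibitor of autophagy, by 1.10. 1700011F14Rik (Ccdc172) fell by 0.89. Rubcn had 108 and 104 CPM in heterozygous IP, against 218 and 263 CPM in homozygous IP, without overlap. The most read member, 1700010I14Rik, also fell, with 475 and 532 CPM in heterozygous IP, against 878 and 833 CPM in homozygous IP, a log2 difference of -0.68 (SE 0.20) and an edgeR adjusted p of 0.0228.

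The testis and IP comparisons use different libraries and could be set side by side. Of 154 members tested in both, 128 had opposite signs as coded, which means the heterozygote higher in both or lower in both (83.1%), against 60.2% of 13263 genes. Across these 154 members Pearson's r was 0.79 and Spearman's rho 0.74 between both heterozygote over homozygote differences. In the second clone series they were 0.77 and 0.67, and over all genes 0.60 and 0.36. Fitted log2 values entered these, also for members with 0 reads in homozygous IP. Members are not independent replicates, and the animals of a genotype may be shared, so this is a description. Of the 58 members that DESeq2 called lower in homozygous testis, 54 were called higher in heterozygous IP by edgeR, which is 93.1% of the testis list and 52.9% of the IP list of 102. For all genes the overlap was 87.0% of the testis list of 683 and 25.1% of the IP list of 2371. None of the 58 was called lower in heterozygous IP (0). Without heterozygous testis replicate 1 the members' r was 0.76, against 0.54 over all genes. Without heterozygous testis replicate 2 it was 0.70, against 0.45 over all genes.

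**Figure D5:**
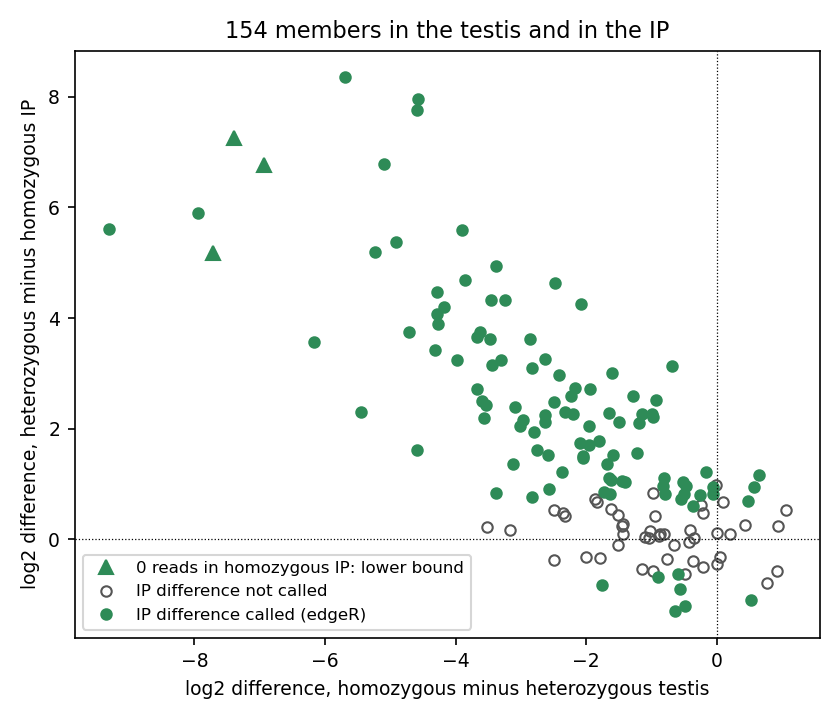
Log2 difference in testis (homozygous minus heterozygous, x axis) and in IP (heterozygous minus homozygous, y axis) of the 154 members tested in both. Filled points were called by edgeR in the IP, open points were not, and triangles are members with 0 reads in both homozygous IPs, drawn at the lower bound of their fold; members far left in the testis lie high in the IP.

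Spermatid markers differed between the IPs as well. The 14 elongating spermatid markers summed to 9195 and 8841 CPM in heterozygous IP, against 1546 and 1779 CPM in homozygous IP, and the 15 round spermatid markers to 3050 and 2987 CPM, against 1831 and 1725 CPM. The other direction was seen for pachytene spermatocyte markers, with 5852 and 6280 CPM in heterozygous IP, against 8614 and 10804 CPM in homozygous IP, and for 9 meiotic prophase markers, with 2418 and 2716 CPM, against 3549 and 4272 CPM. Sertoli markers summed to 382 and 364 CPM in heterozygous IP, against 822 and 525 CPM in homozygous IP, and myoid markers to 80.0 and 73.8 CPM, against 158 and 197 CPM. Leydig markers overlapped, with 300.4 and 291 CPM in heterozygous IP, against 497 and 288 CPM in homozygous IP. Their part in the members' IP difference was not tested.

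Relative to testis of the same genotype, the members showed no settled shift as a group in heterozygotes. In heterozygotes the median log2 difference of 158 members, IP minus testis, was -0.25, against -0.04 over all 13562 genes, and edgeR called no member (0 of 158) and no gene (0%). At an unadjusted p under 0.05 edgeR had 11 of the 158 members higher and 27 lower, against 1378 and 1082 of all 13562 genes. DESeq2 called 4 members higher and 10 lower, against 1.92% and 2.5% of all genes. Without heterozygous testis replicate 1 the members' median was -0.66 and edgeR called 94 of 159 members, 14 higher and 80 lower, where it called 40.8% of all genes. Without heterozygous testis replicate 2 the median turned to 0.44, and edgeR called 106 of 159 members, 67 higher and 39 lower, and 52.4% of all genes. The direction of the median thus rested on which testis library was used.

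1700020A23Rik had 23.9 and 14.9 CPM in heterozygous IP, against 0.333 and 3.93 CPM in heterozygous testis, a log2 difference of 3.16 (SE 0.97) with an adjusted p of 0.232 by edgeR and 0.0101 by DESeq2. The difference was 2.34 without heterozygous testis replicate 1 and 5.76 without heterozygous testis replicate 2. 1700003F12Rik had 28.3 and 10.1 CPM in heterozygous IP, against 1.33 and 5.28 CPM in heterozygous testis, and a DESeq2 adjusted p of 0.0349, with log2 differences of 1.92 with heterozygous testis replicate 1 left out and 3.82 with heterozygous testis replicate 2 left out. Both IP values were above both testis values for each gene. At the other end, 1700019M22Rik had 33.5 and 47.5 CPM in heterozygous IP, against 150 and 861 CPM in heterozygous testis, a log2 difference of -3.57 (SE 0.85) and a DESeq2 adjusted p of 0.000225. It was -4.40 without heterozygous testis replicate 1 and -1.94 without heterozygous testis replicate 2. 1700034E13Rik had 53.2 and 60.2 CPM in heterozygous IP, against 139 and 786 CPM in heterozygous testis, and Tex35 had 64.4 and 68.9 CPM, against 282 and 361 CPM. The log2 difference of 1700034E13Rik ran from -3.77 without heterozygous testis replicate 1 to -1.35 without heterozygous testis replicate 2, while that of Tex35 was -2.41 and -2.13 in these fits. 1700057G04Rik and 1700008I05Rik (Tcp11x2), a member of the Tcp11 family on the X chromosome, had log2 differences of -2.59 (SE 0.56) and -2.24 (SE 0.44). These were -1.79 and -1.83 without heterozygous testis replicate 2. None of these members passed edgeR's test with all libraries, and for all of them both IP libraries lay on one side of both testis libraries.

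In homozygotes, where the IP measures what the antibody and beads recover with Rnf17 disrupted, 142 members were tested and the median log2 difference, IP minus testis, was -0.04, against -0.01 over all 13334 genes. edgeR called 2 members higher (1.84% of genes tested) and 3 lower (1.45%), and DESeq2 10 higher and 7 lower, against 5.19% and 4.78%. Ccdc7b rose, with 342.5 and 412.8 CPM in homozygous IP, against 56.0 and 52.9 CPM in homozygous testis, a log2 difference of 2.79 (SE 0.40) with an edgeR adjusted p of 0.0087. 1700008O03Rik rose, with 96.1 and 126 CPM, against 33.8 and 26.7 CPM, and an edgeR adjusted p of 0.0284. 1700112E06Rik (Lrmda) fell to 12.5 and 19.0 CPM in homozygous IP, against 212 and 109 CPM in homozygous testis, a log2 difference of -3.35 (SE 0.47) with an edgeR adjusted p of 0.00816. Smim23 fell to 3.03 and 1.502 CPM in homozygous IP, against 11.9 and 15.04 CPM in homozygous testis, and Cfap299 to 52.4 and 51.2 CPM, against 169 and 183 CPM. Exons of 1700008O03Rik and Cfap299 overlap other annotated genes over 15.2% and 19.1% of their length. Members called numbered 32 of 145 without homozygous testis replicate 1, against 17.6% of all genes, and 52 of 146 without homozygous testis replicate 2, against 32.5%. They numbered 4 of 145 without homozygous IP replicate 1, against 1.36% of all genes, and 2 of 147 without homozygous IP replicate 2, against 0.633%. In both fits with an IP left out Ccdc7b and Lrmda passed, and 1700008O03Rik, Smim23 and Cfap299 did not, with adjusted p of 0.0853, 0.0721 and 0.289 without homozygous IP replicate 1 and 0.327, 0.425 and 0.49 without homozygous IP replicate 2.

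The interaction, the log2 difference of IP over testis in heterozygotes minus that in homozygotes, tests whether recovery depended on genotype. Among 160 members its median was -0.32, against 0.02 over all 14180 genes, and edgeR called no member and no gene (0%). At an unadjusted p under 0.05 edgeR had 4 members above and 18 below 0, against 511 and 862 of all 14180 genes. DESeq2 called 6 members, all below 0, against 1.54% of all genes lower. It gave no adjusted p to 86 of the 160 members and to 9622 of the 14180 genes, which it set aside for low counts. The 1.54% counts these genes in its base. The members' median was -0.75 without heterozygous testis replicate 1, where edgeR called 11 of 161, against 1.75% of all genes. Without heterozygous testis replicate 2 the median was 0.54 and edgeR called no member (0), against 0.0204% of all genes.

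Members were last described by position and annotation. On the X chromosome lie 11 members, of which 9 were tested in the testis. Their median log2 difference was -1.43, and DESeq2 called 2 lower (4.77% of all genes tested). Leaving out heterozygous replicate 1 gave a median of -1.58, and leaving out heterozygous replicate 2 gave -0.81. The noncoding members numbered 5, of which 4 were tested in the testis, all below 0 with a median of -2.96. DESeq2 called 3 of the 4 lower (4.77% of all genes tested). Without heterozygous replicate 2 their median was -2.22. In the IP edgeR called 3 of the 5 higher in heterozygotes (17.7% of all genes tested). Exons of 19 members overlap another annotated gene by at least 10% of their length, and 8 members have a near-identical copy, so that reads could be shared between genes; how the counting dealt with strand and overlaps is not given in the sources used here. Among the 50 members with a promoter window that DESeq2 called lower in homozygous testis, GTTGCC stood in 22% and TGACGT in 6%, and in the other 81 tested members in 19.8% and 7.41%. CAACTG stood in 12% of the called members' windows and in 23.5% of the others.

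In all, 3 members gave no read in any library: 1700012L04Rik (H2al1m), an X-linked histone H2A gene with near-identical copies, 1700020D05Rik and 1700071K01Rik. The limit that a count of 0 allows, 3 reads, ranged from 0.0593 CPM in the deepest library to 0.53 CPM in the shallowest.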

How the data were processed

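RNA sequencing of testis and of RNF17 IPs was measured in 8 libraries, 4 groups of 2, grouped by sample title. The deposited gene tables hold whole-number read counts per gene that the authors made; the submitters' processing notes name STAR, DESeq and mm9 without versions or roles. The authors' deposited table of differing genes holds, per the file headers, the normalised signal of each genotype as a mean. The authors' log2 fold changes, their standard errors (a score) and p-values stand beside it in that deposited table. Repeated testis columns agreed (4 of 4 identical) and 0 columns were unmapped.

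The members, gene lists and motifs were chosen with earlier results of these data known. Counts were tested over the whole gene table with edgeR 4.0.16 (quasi-likelihood, TMM scaling, filterByExpr with a minimum count of 10) in R 4.3.3, with Benjamini-Hochberg adjustment over all genes tested and a threshold of 0.05. Each comparison used its own libraries and the interaction all 8. Alternatives were DESeq2 1.42.0, no filter, RLE size factors, a replicate block and leaving out each library. The code was tested on simulated data. Printed CPM use 1 TMM scale over all 8 libraries, so a fitted log2 difference can depart slightly from their ratio. Intervals are exact binomial (Clopper-Pearson), and they and the floor of 3 reads cover counting error only, since reads without molecular identifiers are not independent molecules.

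Members were named by rule: the 10 with the most testis reads; the 6 largest testis differences each way among members with average log2 CPM of at least 3 and groups that do not overlap (none was higher); the largest differences past the threshold in each IP comparison (5, 4 and 3 each way); and the 5 with the smallest adjusted p in the authors' deposited table. Where edgeR called nothing, DESeq2's calls took their place, a choice made after the data were seen. Others named are marked as such or are the few members of a small count. Current symbols, gene types and promoters are from RefSeq (GRCm38.p6), for which all 167 members matched; transcript lengths are from GENCODE M21, matched for 165. The tables' build is mm9, so only the RefSeq windows carry coordinates. Transposon tables were not used here.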

Additional observations from a re-analysis of the deposited data

Results flagged for a closer look

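The ratio of IP to testis differed between genotypes for 6 members by DESeq2's interaction test, while edgeR's quasi-likelihood test called none of them; its smallest adjusted p among the members was 0.26. The interaction, in log2 units, was -3.08 (SE 0.63) for 1700008F21Rik (Ccdc7b), whose IP over testis difference was -0.23 in heterozygotes and 2.79 in homozygotes. It was -3.07 (SE 1.00) for 1700019M22Rik and -2.95 (SE 0.75) for 1700025E21Rik (Ssmem1), a gene that mouse sperm need for head shaping. Ssmem1 had 62.3 and 59.3 CPM in heterozygous IP and 79.5 and 88.6 CPM in homozygous IP; its testis levels were 39.4 and 53.6 CPM in homozygotes and 119 and 401 CPM in heterozygotes. The remaining 3 were 1700013H16Rik at -2.66 (SE 0.55), 1700057G04Rik at -2.62 (SE 0.73) and 1700034J05Rik at -2.41 (SE 0.71). Each of these 6 values is lower IP recovery relative to testis in heterozygotes than in homozygotes, and the testis level itself was lower in homozygotes for each. With 1 library left out, the interaction ran from -3.59 to -2.31 for Ccdc7b, from -3.85 to -1.31 for 1700019M22Rik and from -3.58 to -1.82 for Ssmem1.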

How the results depend on the processing

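The members' median log2 difference kept its sign under DESeq2, no filter and RLE size factors in all 5 comparisons. Homozygous against heterozygous testis: over all genes 0 calls by edgeR became 706 with DESeq2, 361 without the filter, 943 with the replicate block and 73 to 1273 with 1 library left out; among members the 0 became 58, 33, 66 and 8 to 84, and the members' median ran from -2.18 to -0.96 with 1 library left out. DESeq2 without heterozygous testis replicate 1 or 2, added after seeing the data, called 1261 and 387 genes and 80 and 31 members, with members' medians of -2.18 and -1.026. Heterozygous against homozygous IP: 4042 genes became 4525 with the block and 2069 to 5414 with 1 library left out, and the members' median ran from 1.14 to 1.495. Heterozygous IP against testis: 0 genes became 599 with DESeq2, 1 without the filter, 194 with the block and 11 to 7278 with 1 library left out; members 14 with DESeq2, 6 with the block and 0 to 106; their median ran from -0.66 to 0.44. Homozygous IP against testis: 438 genes became 1330 with DESeq2, 1469 without the filter, 1010 with the block and 89 to 4556; 5 members became 17, 19, 14 and 2 to 52, and 9 with RLE; their median of -0.04 became 0.012 with the block and ran from -0.14 to 0.24. Interaction: 0 genes stayed 0 with the block and became 248 with DESeq2 and 0 to 259; 0 members became 6 and 0 to 11; the median ran from -0.75 to 0.54. Without heterozygous testis replicate 2 the testis difference changed sign for Cfap206 (0.22; range with 1 library left out -1.82 to 0.22) and 1700010I14Rik (0.36; -1.58 to 0.36), and without homozygous testis replicate 2 for Shcbp1l (-0.55; -0.55 to 1.17). The cause was not tested.

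No label says that replicate numbers pair libraries. The deviations of same-numbered testis libraries correlated across genes at 0.61, those of the IPs at 0.06, and IP with testis at 0.02 in heterozygotes and -0.14 in homozygotes. For homozygous IP and testis the crossed pairing, added after seeing the data, gave 1787 genes and 21 members. With 2 libraries a group, the deepest at 50575649 reads and the shallowest at 5661754, low members are limited by depth.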
